A study of Homo sapiens with 4 samples.

Results

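The genes described here encode the NF-kB pathway and its feedback: the 5 NF-kB subunits, their inhibitors, the A20 regulators, the IRAK and TRAF adaptors, the IKK and TAK1 kinases, and 4 intracellular or surface target genes, with no cytokines. The list names 37 genes. A gene was included through a probeset whose platform annotation names that gene alone, and 31 genes had one, of 22465 genes with such a probeset in all. SOD2, TAB1, BIRC3, IRAK1, IRAK4 and TRAF2 are not analysed here as genes. All 31 passed the signal filter, a mean log2 signal of at least 4.035 over the arrays, as did 14418 genes in all, and each was read from 1 probeset.

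RNA was measured on 4 Affymetrix arrays, 1 per group: SUM159 with miR-100 induced, SUM159 control, MDA-MB-231 with miR-100 induced, and MDA-MB-231 control. SUM159 and MDA-MB-231 are established human triple-negative breast cancer lines, and all 4 groups carried the lentiviral Ptripz-mir100 plasmid and had been selected with puromycin. The induced groups were given doxycycline (called tetracycline in other labels) for 1 week, and the control groups were not; the series' design text writes SUM149 where every sample label writes SUM159. No group given the drug without the plasmid is among these arrays, so the drug and miR-100 cannot be told apart. The SUM159 medium held hydrocortisone and insulin and the MDA-MB-231 medium, as listed, did not, so line and medium cannot be told apart either. The mature microRNA encoded by the induced gene is shown with its seed, bases 2 to 8, in capitals (RefSeq, GRCh38.p14, chr11:122152275-122152296, minus strand).
hsa-miR-100-5p: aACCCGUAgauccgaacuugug

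NF-kB is a family of dimeric transcription factors that IkB proteins hold in the cytoplasm. Signals from cytokine and Toll-like receptors pass through MYD88, IRAK and TRAF adaptors and TAK1 to the IKK complex, which marks IkB for destruction and frees the dimers; a separate route through MAP3K14 processes the NFKB2 precursor. The freed factors switch on their own brakes, among them NFKBIA, NFKBIE and TNFAIP3, so these transcripts are widely read as a record of pathway activity. In triple-negative breast cancer cells the pathway is known for basal activity in the absence of an added stimulus.

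The promoters are shown because 3 of the genes with the largest differences below carry the binding motif of NF-kB near their start. RefSeq promoter windows, 250 bases before to 50 after a transcription start, were found for 28 of the 31 genes, the exceptions being RELB, NFKBIE and IKBKB. The kappaB consensus motif of NF-kB, searched on both strands, was present in at least 1 window of 11 of the 28 genes (39.3%), against 1937 of all 27305 genes in the promoter table (7.09%). By window the shares were 30.95% of 42 windows and 5.91% of 35116. The 11 genes were REL, NFKB1, NFKB2, NFKBIA, NFKBIB, NFKBIZ, BCL3, TNFAIP3, TNIP1, TRAF3 and TAB2. The AP-1 motif TGANTCA, whose letters cannot share bases with a kappaB match, was searched in the same way. It was present in 2 of the 28 genes (7.14%), against 9.37% of all genes in the table. A match describes letters and is not evidence of binding, and several of these genes are long-known targets, so the share is not independent of how the list was drawn up. In the windows printed here, 5′ to 3′ on the gene's strand (GRCh38.p14), capitals mark kappaB matches, with overlapping matches joined. TNFAIP3 has matches at positions -67 to -58 and -55 to -46 from the start, TNIP1 at -42 to -33, NFKB2 at -107 to -97 and -78 to -69, NFKBIA at -81 to -72, and NFKB1 at -49 to -40. The IRAK2 window has none and is shown because IRAK2 had the largest difference of all 31 genes.
TNFAIP3, chr6:137867009-137867308, plus strand: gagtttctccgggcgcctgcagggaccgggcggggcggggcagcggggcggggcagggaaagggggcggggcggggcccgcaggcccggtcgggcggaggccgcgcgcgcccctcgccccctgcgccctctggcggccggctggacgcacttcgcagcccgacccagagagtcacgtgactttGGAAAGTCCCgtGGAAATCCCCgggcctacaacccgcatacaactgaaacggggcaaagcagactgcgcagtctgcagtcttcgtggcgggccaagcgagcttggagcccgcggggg
TNIP1, chr5:151080985-151081284, minus strand: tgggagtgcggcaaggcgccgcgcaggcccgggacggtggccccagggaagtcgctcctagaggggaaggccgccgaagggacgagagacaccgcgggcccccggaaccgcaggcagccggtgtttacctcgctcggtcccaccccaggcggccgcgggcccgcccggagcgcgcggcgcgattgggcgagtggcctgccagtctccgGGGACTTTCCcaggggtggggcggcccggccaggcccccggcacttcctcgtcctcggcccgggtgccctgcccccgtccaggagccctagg
NFKB2, chr10:102394328-102394627, plus strand: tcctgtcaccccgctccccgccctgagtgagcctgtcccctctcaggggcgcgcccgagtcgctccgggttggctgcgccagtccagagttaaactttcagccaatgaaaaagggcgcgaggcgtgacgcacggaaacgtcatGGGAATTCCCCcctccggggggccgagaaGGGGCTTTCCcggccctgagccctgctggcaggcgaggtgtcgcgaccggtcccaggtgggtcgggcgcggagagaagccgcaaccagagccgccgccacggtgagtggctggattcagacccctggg
NFKBIA, chr14:35404700-35404999, minus strand: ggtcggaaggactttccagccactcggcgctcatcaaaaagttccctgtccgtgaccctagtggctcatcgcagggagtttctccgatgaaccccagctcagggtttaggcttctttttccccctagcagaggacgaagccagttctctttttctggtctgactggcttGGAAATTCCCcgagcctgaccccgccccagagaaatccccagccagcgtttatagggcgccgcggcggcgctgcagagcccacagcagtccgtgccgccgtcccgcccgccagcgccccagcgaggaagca
NFKB1, chr4:102501109-102501408, plus strand: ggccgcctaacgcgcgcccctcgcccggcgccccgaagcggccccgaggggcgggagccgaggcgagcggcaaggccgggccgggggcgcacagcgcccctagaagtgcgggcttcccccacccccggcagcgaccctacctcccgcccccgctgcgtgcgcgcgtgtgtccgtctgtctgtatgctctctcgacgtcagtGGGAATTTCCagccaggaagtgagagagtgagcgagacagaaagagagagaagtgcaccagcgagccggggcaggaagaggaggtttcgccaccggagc
IRAK2, chr3:10164669-10164968, plus strand: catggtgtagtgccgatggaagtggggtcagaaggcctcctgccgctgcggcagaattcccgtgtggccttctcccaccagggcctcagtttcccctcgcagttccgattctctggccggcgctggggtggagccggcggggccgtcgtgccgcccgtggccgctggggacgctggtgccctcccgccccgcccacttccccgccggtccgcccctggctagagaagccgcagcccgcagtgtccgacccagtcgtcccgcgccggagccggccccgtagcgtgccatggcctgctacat

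Values are log2 probeset signals, on which a difference of 1 is 2-fold, and signals of different probesets are not set against each other. The array medians lay between 4.0 and 4.07. The MIR100 probeset read 18.18 in induced and 6.56 in control SUM159 cells, and 17.29 in induced and 8.11 in control MDA-MB-231 cells. Both arrays labelled induced thus read far higher than their controls. Of the epithelial markers, KRT8 (11.84 to 13.37) and KRT18 (10.31 to 11.85) were high in all groups. KRT19 and EPCAM read 4.96 and 4.55 in induced SUM159 cells, against 9.52 and 6.16 in induced MDA-MB-231 cells. CDH1 lay at 3.77 to 4.03 on all arrays, below the signal cutoff. The mesenchymal markers VIM (15.20 to 16.23), FN1 (11.63 to 15.57) and ZEB1 (11.14 to 11.50) were high in all groups. ESR1 and PGR, the hormone receptor genes, lay at 2.98 to 3.68, below the signal cutoff. Of the blood, endothelial and erythroid markers, 2 of the 10 with a probeset of their own passed the filter, CD3E and CD68. PTPRC, the defining leukocyte gene, lay at 3.59 to 3.87. The summed linear signal of the 5 blood markers was 2283 in induced and 1504 in control SUM159 cells, and 8958 and 9024 in induced and control MDA-MB-231 cells, nearly all of it from CD68; its part in the results was not tested. In RNA from whole cultures, fewer cells expressing a gene and less of its RNA per cell cannot be told apart.

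**Figure D1:**
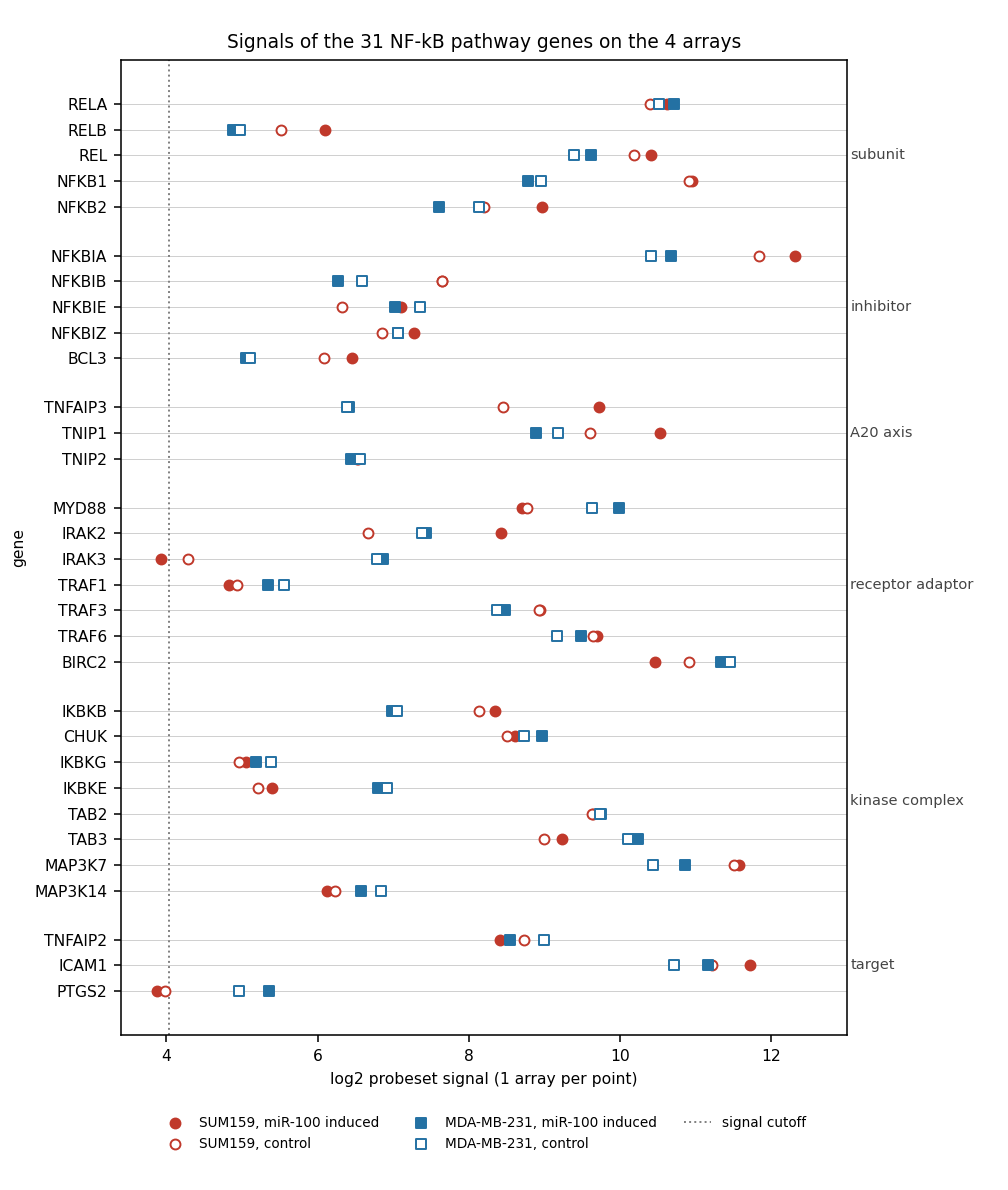
Log2 probeset signal (horizontal axis) of each of the 31 genes (vertical axis, grouped by role) on the 4 arrays, with filled symbols for miR-100 induced and open symbols for control cells, circles for SUM159 and squares for MDA-MB-231. TNFAIP3 stands at 9.72 and 8.46 in induced and control SUM159 cells and at 6.42 and 6.39 in the MDA-MB-231 pair. The dotted line is the signal cutoff of 4.035.

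In SUM159 cells with miR-100 induced, 5 of the 31 genes were at or past 1.5-fold higher than in control cells and none was at or past 1.5-fold lower. They were the adaptor kinase gene IRAK2, the feedback genes TNFAIP3, TNIP1 and NFKBIE, and the subunit gene NFKB2. The 5 are 16.1% of the list, against 3.95% of all 14418 genes past 1.5-fold higher and 3.0% lower. The median difference of the 31 genes was 0.10, against 0.00 over all genes. With 1 array per state there was no test and no replicate check within a line. Probesets below the cutoff, taken as dim, scattered by 0.19 between the SUM159 arrays and by 0.18 between those of MDA-MB-231 (median absolute deviation scaled to an SD). The central 95% of the kept genes lay between -0.62 and 0.69 for SUM159, and between -0.44 and 0.53 for MDA-MB-231.

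Among the subunits, which make up the DNA-binding dimers, the difference in SUM159 was largest for the genes of the alternative route. NFKB2, which encodes p100 and its product p52, read 8.97 in induced and 8.2 in control cells, a difference of 0.77 or 1.71-fold. RELB, the usual partner of p52, read 6.10 in induced and 5.52 in control cells, and its difference of 0.58 lay just under the 1.5-fold limit of 0.585. RELA, REL and NFKB1, the classical subunit genes, differed by 0.22, 0.22 and 0.04. All 5 subunits were thus at or above their control, though the difference of NFKB1 was within the spread of dim probesets and turned negative after quantile normalization.

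The inhibitors bind the dimers and limit their action. NFKBIE, which encodes IkB-epsilon, read 7.11 in induced and 6.32 in control SUM159 cells, a difference of 0.79 or 1.73-fold. NFKBIA, which encodes IkB-alpha, the classical feedback inhibitor, read 12.32 in induced and 11.84 in control cells, a difference of 0.48. The nuclear IkB genes NFKBIZ and BCL3 read 7.28 and 6.45 in induced cells, against 6.85 and 6.09 in control cells. NFKBIB, the gene of IkB-beta, read 7.64 in each state. Of the 5 inhibitors, 4 were higher and NFKBIB had no difference.

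The A20 group removes or reads ubiquitin chains that carry the signal. TNFAIP3, which encodes the ubiquitin-editing enzyme A20, read 9.72 in induced and 8.46 in control SUM159 cells, a difference of 1.26 or 2.40-fold and the 54th highest of 14418 genes. TNIP1, which encodes the A20-binding protein ABIN1, read 10.53 in induced and 9.61 in control cells, a difference of 0.92 or 1.89-fold and the 136th highest. TNIP2, the gene of ABIN2, read 6.54 in induced and 6.52 in control cells, so A20 and ABIN1 differed while ABIN2 did not move beyond the spread of dim probesets.

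The adaptors couple receptors to the kinases. IRAK2, a kinase of the interleukin 1 and Toll-like receptor complex, read 8.43 in induced and 6.67 in control SUM159 cells, a difference of 1.76 or 3.39-fold and the 14th highest of all genes. Its induced value was the highest of the 4 arrays and its control value the lowest. IRAK3, which encodes the inhibitory relative IRAK-M, read 3.93 in induced and 4.29 in control cells, near the signal cutoff. BIRC2, which encodes the ubiquitin ligase cIAP1, had the lowest difference of the list at -0.46 (10.46 in induced and 10.92 in control cells). MYD88, TRAF1, TRAF3 and TRAF6 differed by -0.10 to 0.06.

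None of the 8 kinase complex genes passed 1.5-fold in SUM159, and their differences ran from -0.11 for MAP3K14, the kinase of the alternative route, to 0.24 for TAB3, a TAK1 adaptor. IKBKB and CHUK, the catalytic IKK subunit genes, differed by 0.22 and 0.10, and IKBKG, the regulatory subunit gene, by 0.10. Among the targets, ICAM1, an adhesion receptor, read 11.72 in induced and 11.22 in control cells, a difference of 0.50. TNFAIP2 was lower by 0.32 (8.41 in induced and 8.73 in control cells). PTGS2, which encodes cyclooxygenase 2, lay below the cutoff in this line, at 3.88 and 3.98 in induced and control cells. The genes past 1.5-fold in SUM159 thus came from the subunit, inhibitor, A20 and adaptor groups, and none from the kinases or the 3 targets.

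In MDA-MB-231 cells with miR-100 induced, 0 of the 31 genes were past 1.5-fold in either direction, where 1.69% of all genes were past it higher and 0.784% lower. The differences ran from -0.52 to 0.46, with a median of -0.01 against 0.01 over all genes. ICAM1 had the highest, at 11.17 in induced and 10.71 in control cells. MAP3K7, which encodes the TAK1 kinase, followed at 10.86 in induced and 10.44 in control cells. PTGS2 read 5.36 in induced and 4.96 in control cells, and MYD88, the main adaptor of Toll-like receptors, 9.99 and 9.63. These highest values all lay inside the range that holds 95% of genes in this line.

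At the other end in MDA-MB-231, NFKB2 read 7.61 in induced and 8.13 in control cells, a difference of -0.52. TNFAIP2 read 8.54 in induced and 9.00 in control cells, a difference of -0.46. NFKBIE and NFKBIB were lower by 0.33 and 0.32, and TNIP1 by 0.29. NFKB2 and TNFAIP2 lay below the 95% range of all genes, as the 184th and 297th lowest. IRAK2 (7.43 in induced and 7.38 in control cells) and TNFAIP3 (6.42 and 6.39), the genes with the largest differences in SUM159, did not differ here beyond the spread of dim probesets.

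**Figure D2:**
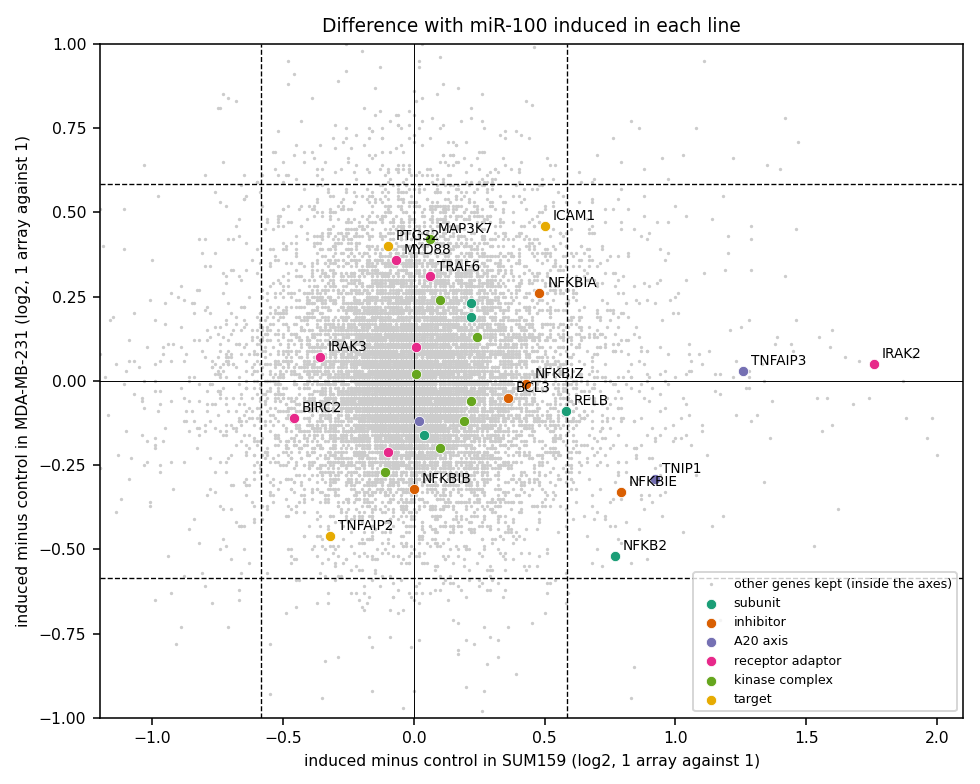
Induced minus control log2 signal in SUM159 (horizontal axis) against MDA-MB-231 (vertical axis), each 1 array against 1; coloured points are the 31 genes by role, grey points the other kept genes within the axes, and dashed lines 1.5-fold. IRAK2 and TNFAIP3 lie far right near 0 on the vertical axis (1.76 and 0.05, 1.26 and 0.03), TNIP1, NFKBIE and NFKB2 lie right and below 0, and ICAM1 lies at 0.50 and 0.46.

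Set side by side, 12 of the 31 genes (38.7%) were above their control in both lines, against 25.2% of all genes, and 4 (12.9%) were below it in both, against 23.7%. A further 11 (35.5%) were above control in SUM159 and below it in MDA-MB-231, against 22.7%. These counts take any difference above 0. After quantile normalization 8 of the 31 genes were above control in both lines, a share close to the 25.2% of all genes as deposited. In SUM159, 17 genes were then above control, in place of 23. The shares of all genes, and the count of 11, were not taken again under that scaling, so the excess over all genes depends on scaling. ICAM1 (0.50 in SUM159, 0.46 in MDA-MB-231), NFKBIA (0.48 and 0.26), REL (0.22 and 0.23) and RELA (0.22 and 0.19) exceeded the spread of dim probesets in each line. The share of all genes past that spread was not counted. Of 14418 genes, REL and RELA were each 2914th highest in SUM159, and 2472nd and 3007th in MDA-MB-231, so differences of their size are common. TNFAIP2 was below control by more than that spread in each line (0.32 and 0.46).

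Over both lines, limma with cell line as a block called 0 of the 31 genes at an adjusted p under 0.05, as it called 0% of all genes. At an unadjusted p under 0.05 there was 1 higher gene, ICAM1 (0.48 ± 0.12 SE, adjusted p = 0.918), and 1 lower gene, TNFAIP2 (-0.39 ± 0.12 SE, adjusted p = 0.918). IRAK2 had a mean difference of 0.91 ± 0.47 (SE) and TNFAIP3 of 0.65 ± 0.35. The fit has 1 residual degree of freedom, and its residual is how far the lines differ in their response, so genes that differ in SUM159 alone have wide errors in it.

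Other genes of the pathway, from lists not picked for how these genes moved but drawn up with earlier results of these data known, were counted in the same way. Of 25 kept receptors and proximal adaptors, 3 (12%) were past 1.5-fold higher in induced SUM159 cells and 2 (8%) lower, against 3.95% and 3.0% of all genes. TLR2, a receptor for bacterial lipopeptides, read 6.89 in induced and 5.93 in control cells. IL1R1, the interleukin 1 receptor gene upstream of IRAK2, read 9.54 in induced and 8.60 in control cells, and MALT1, a paracaspase that signals to IKK, was higher by 0.69. IL1RL1, the gene of the receptor ST2, read 7.81 in induced and 10.20 in control cells, and IL18R1, the interleukin 18 receptor gene, 9.43 and 10.25. Receptors of the same interleukin 1 family thus differed in opposite directions in SUM159. In MDA-MB-231 none of the 25 passed 1.5-fold. The highest there was RIPK2 (10.62 in induced and 10.04 in control cells), which encodes the kinase of the NOD receptors, followed by the adaptor gene TRAF5 (7.69 and 7.27).

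Of 25 kept ubiquitin editing and scaffold genes, 1 (4%) was past 1.5-fold higher in SUM159, the share of all genes being 3.95%, and 0 in MDA-MB-231. The gene was TNIP3, the gene of ABIN3 and a relative of TNIP1, at 6.82 in induced and 5.93 in control cells. ZC3H12A, which encodes the ribonuclease Regnase-1, was higher by 0.52. RBCK1, a subunit gene of the linear ubiquitin ligase, and MAP3K8 were lower by 0.58 and 0.56. In MDA-MB-231 the largest differences were those of TBK1 and RNF11, higher by 0.54 and 0.38.

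Of 21 kept non-cytokine targets outside the list, 6 (28.6%, against 3.95% of all genes) were past 1.5-fold higher in SUM159 and 0 lower, with a median of 0.27. For MDA-MB-231 the count was 0 each way and the median -0.02. The early response gene IER3 read 9.95 in induced and 8.39 in control SUM159 cells, against 13.02 in induced and 13.17 in control MDA-MB-231 cells. PLAUR, the urokinase receptor gene, was 1.09 higher in SUM159, against 0.08 in MDA-MB-231. CD44 and the kinase gene NUAK2 were higher by 0.89 and 0.86 in SUM159. The urokinase gene PLAU and the tissue factor gene F3 were higher by 0.58 and 0.50 in MDA-MB-231. Of 16 kept cytokine targets, 3 (18.8%, against 3.95% of all genes) were past 1.5-fold higher and 0 lower in SUM159. CXCL8, the interleukin 8 gene, read 7.71 in induced and 5.23 in control SUM159 cells. IL32 and CXCL2 were each higher by 0.86, and CSF1 by 0.53. In MDA-MB-231, CCL20 (4.61 in induced and 3.61 in control cells, the control signal below the cutoff) was past it higher and LIF (7.67 and 8.47) lower. CCL20 read 4.07 and 4.33 in induced and control SUM159 cells. It thus passed the filter through its induced MDA-MB-231 signal, and its direction there adds no support. All genes tested had medians of 0.00 (SUM159) and 0.01 (MDA-MB-231).

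**Figure D3:**
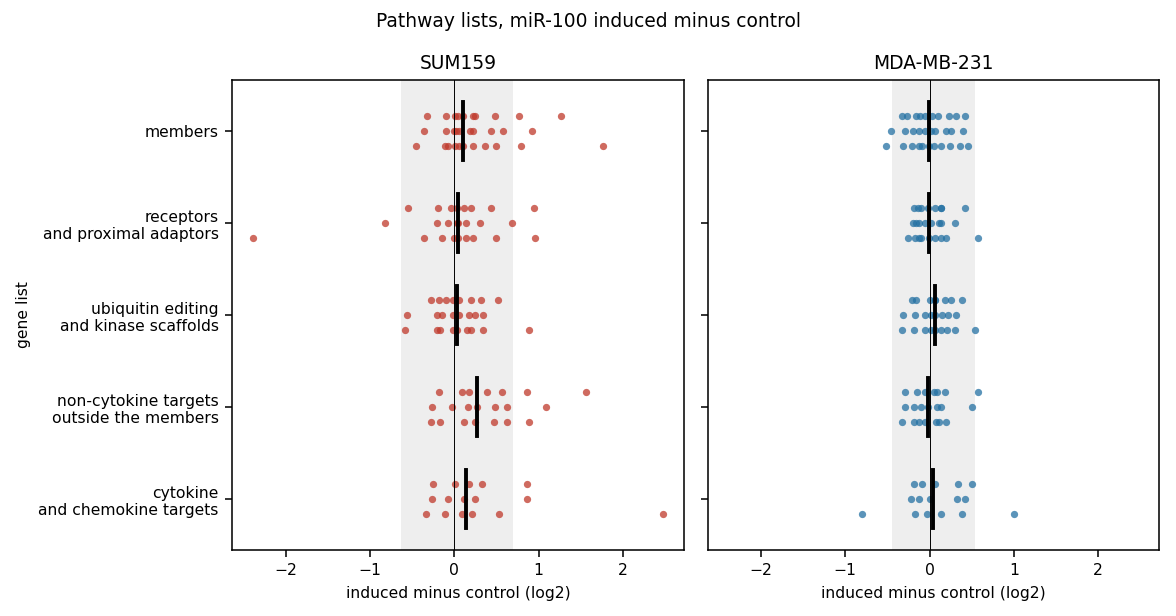
Induced minus control log2 signal (horizontal axis) of each kept gene in the 31-gene list and the 4 further pathway lists (rows), in SUM159 (left) and MDA-MB-231 (right); black bars are medians and grey bands hold the central 95% of all kept genes. The non-cytokine targets have medians of 0.27 (SUM159) and -0.02 (MDA-MB-231).

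Limma called 19 of the 31 genes between the lines and 0 between the states over both lines. IRAK2 still differed more by state in SUM159 (1.76) than between the lines, where it differed by -0.71 in control and 1.00 in induced arrays. NFKBIE differed by 0.79 by state in SUM159, and between the lines by -1.04 in control and 0.08 in induced arrays. SUM159 cells had more transcript of NFKB1, TNFAIP3, NFKBIA and IKBKB, and less of IRAK3, IKBKE and MYD88, than MDA-MB-231 cells. With limma over both states, 11 of the 31 genes (35.5%) were higher in SUM159 and 8 (25.8%) lower at an adjusted p under 0.05, against 20.8% and 23.8% of all 14418 genes, so a call by itself is common. The fit used 2 arrays per line, 1 induced and 1 control, with treatment state as a block; the labels do not say that arrays came from separate cultures, and each line stands for itself. Without the induced SUM159 array the counts were 7 higher and 6 lower, without the induced MDA-MB-231 array 5 and 5, and without the control MDA-MB-231 array 4 and 5, in fits with no block and 1 residual degree of freedom. In those fits and the one without the control SUM159 array, 8 genes kept the call each time: NFKB1, NFKBIB and IKBKB, higher in SUM159, and MYD88, IRAK3, IKBKE, TAB3 and PTGS2, lower. The share of all genes called in the fits with an array left out was not counted, so their counts and kept calls stand without a background. PTGS2 lay below the signal cutoff on both SUM159 arrays and IRAK3 on 1 of them. PTGS2 passed the filter through MDA-MB-231 alone, so the direction of its call follows from the filter. It adds no support to the counts of lower genes or to the 8 genes named.

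Among the subunits, NFKB1, which encodes p105 and its product p50, read 10.96 and 10.92 in induced and control SUM159 cells, against 8.79 and 8.95 in induced and control MDA-MB-231 cells. It was 4.20-fold higher in SUM159 (2.07 ± 0.13 SE, adjusted p = 0.00337), and its values did not overlap between the lines. REL (0.80 ± 0.12, adjusted p = 0.0136) and RELB (0.89 ± 0.21, adjusted p = 0.0414) were also higher in SUM159. NFKB2 did not pass (0.72 ± 0.36, adjusted p = 0.197): its control signals were close, at 8.2 for SUM159 and 8.13 for MDA-MB-231, and its induced signals apart, at 8.97 and 7.61. RELA, the main activating subunit, lay between 10.40 and 10.71 on all 4 arrays, with overlapping lines.

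Of the inhibitors, NFKBIA read 12.32 and 11.84 in induced and control SUM159 cells, against 10.67 and 10.41 in MDA-MB-231 cells, 2.91-fold higher in SUM159 (1.54 ± 0.13, adjusted p = 0.00505). NFKBIB was higher in SUM159 by 1.21 ± 0.14 (adjusted p = 0.00896) and BCL3 by 1.19 ± 0.16 (adjusted p = 0.0115). NFKBIE and NFKBIZ, which read 6.32 to 7.36 over the arrays, had overlapping lines and were not called. TNFAIP3 had the largest difference upward, at 6.43-fold (2.69 ± 0.35, adjusted p = 0.0106). It was 2.07 between the control arrays and 3.30 between the induced arrays, and its call was lost without either MDA-MB-231 array (adjusted p = 0.0744 and 0.0749). TNIP1 was not called (1.04 ± 0.34, adjusted p = 0.0848), and TNIP2 lay between 6.44 and 6.56 on all arrays.

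The adaptors ran mainly the other way. IRAK3 read 3.93 and 4.29 in induced and control SUM159 cells, against 6.86 and 6.79 in MDA-MB-231 cells (limma adjusted p = 0.00323). With the SUM159 signal under the cutoff set at the cutoff, IRAK3 was at least 6.33-fold lower in SUM159. MYD88 was 2.11-fold lower in SUM159 (-1.08 ± 0.16, adjusted p = 0.0149), and BIRC2 (-0.71 ± 0.15, adjusted p = 0.0308) and TRAF1 (-0.58 ± 0.12, adjusted p = 0.0297), a signal-modulating adaptor, were also lower. TRAF3, a brake on the alternative route, was higher by 0.51 ± 0.12 (adjusted p = 0.0388). IRAK2 was not called: its control signal was lower in SUM159 (6.67 against 7.38) and its induced signal higher (8.43 against 7.43). TRAF6 was not called either.

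Within the kinase complexes, the IKK family genes went in opposite directions. IKBKB, the gene of the catalytic subunit of the classical route, read 8.35 and 8.13 in induced and control SUM159 cells, against 6.99 and 7.05 in MDA-MB-231 cells, 2.33-fold higher in SUM159 (adjusted p = 0.00814). IKBKE, the gene of the IKK-related kinase IKK-epsilon, read 5.40 and 5.21 in SUM159, against 6.80 and 6.92 in MDA-MB-231, 2.94-fold lower in SUM159 (adjusted p = 0.00581). CHUK and IKBKG were not called (-0.29 ± 0.12 and -0.28 ± 0.14). MAP3K7 was higher in SUM159 by 0.89 ± 0.15 (adjusted p = 0.0189), while its adaptor gene TAB3 was lower by 1.06 ± 0.12 (adjusted p = 0.00817) and TAB2 lay between 9.63 and 9.75. MAP3K14 was lower in SUM159 by 0.53 ± 0.12 (adjusted p = 0.0383). Among the targets, PTGS2 read 3.88 and 3.98 in induced and control SUM159 cells, against 5.36 and 4.96 in MDA-MB-231 cells. With both SUM159 signals set at the cutoff it was at least 2.18-fold lower in SUM159. Because PTGS2 passed the filter through MDA-MB-231 alone, this direction was fixed by the filter and its call is no result. ICAM1 was higher (0.53 ± 0.12, adjusted p = 0.0335), a call lost with no treatment block (adjusted p = 0.112), and TNFAIP2 was not called.

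**Figure D4:**
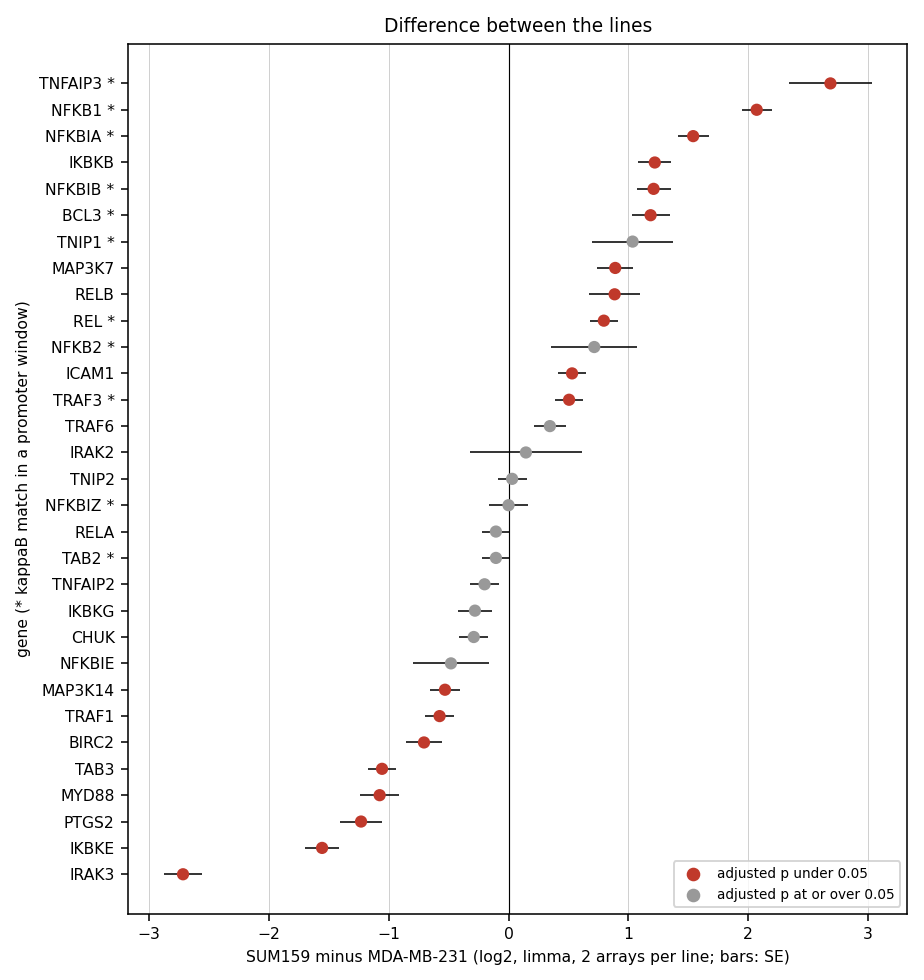
SUM159 minus MDA-MB-231 log2 difference from limma (horizontal axis, bars SE, 2 arrays per line) for the 31 genes, sorted, with red points at an adjusted p under 0.05 and a star beside genes with a kappaB match in a promoter window. TNFAIP3 (2.69) and NFKB1 (2.07) lead, IRAK3 (-2.72, with 1 SUM159 array under the cutoff) and IKBKE (-1.56) close the list, and starred genes fill most of the upper part.

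The promoter matches of all 28 genes with windows were set beside these values as a description. A gene without a match lacks only the searched consensus in its windows, and may hold a kappaB site of other letters or elsewhere. The 2 groups are thus not a split into targets and other genes. Of the 11 genes with a kappaB match, 7 were called higher in SUM159 and 0 lower, with a median difference between the lines of 1.04. Of the 17 genes with windows and no match, 2 were called higher and 8 lower, with a median of -0.29. The 8 include PTGS2, whose direction follows from the filter. Over all 9547 kept genes with windows and no match, 21.0% were called higher in SUM159, with a median of -0.02. Their share called lower was not counted. Over all 14418 kept genes, with or without windows, 23.8% were called lower. Over all 924 kept genes with a match, 23.3% were called higher in SUM159 and 25% lower, with a median of 0.00, so genes that hold the motif at large were split about evenly between the directions. For the response to induction in SUM159, the medians were 0.36 with a match and 0.06 without, against 0.00 for each kind over all kept genes. TNFAIP3, TNIP1 and NFKB2 were past 1.5-fold higher among the 11 genes with a match, and IRAK2 among the 17 without. Of all 924 kept genes with a match 4.22% were past it, close to the 3.95% of all genes. In MDA-MB-231 the medians were -0.01 with a match and 0.07 without.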

How the data were processed

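The 4 arrays were single samples of their groups. The authors' deposited table holds log2 signals for 70523 probesets. Per the submitters' processing notes, the software was Transcriptome Analysis Console with Affymetrix Expression Console. No version, summarisation method, normalization or build is stated in the labels, so a shift shared by most genes could have been removed before deposit. Values were used as deposited. The platform annotation gave 1 symbol to 23781 probesets, several to 1543 and none to 45199; the last 2 kinds were not used for genes. The brightest probeset per gene was taken, and genes at or above the median probeset mean (4.035) were kept. The symbols of all 31 genes matched RefSeq (GRCh38.p14) by gene ID.

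Differences are induced minus control, or SUM159 minus MDA-MB-231. Limma 3.58.1 (lmFit and eBayes, R 4.3.3) was fitted on 14418 genes with p-values two-sided and adjusted by Benjamini-Hochberg over all of them; the procedure was tested on simulated data. With 1 array per line and state, the residual of both fits, for induction and for line, is how far the lines differ in their response. The p-values thus measure only that spread among these arrays, which may be technical, and the number of arrays limits the precision. The members, pathway lists and tests were chosen with earlier results of these data known. Genes are named by rule: all members, MIR100, and per pathway list up to 4 genes with the largest absolute difference in SUM159 and up to 2 in MDA-MB-231. MALT1, the label-check markers and the genes named for differences between lines in the closing section were chosen after their values were seen. Alternatives covered scaling, signal filter, probeset choice, fold limit, the eBayes trend, the blocks and leaving out each array.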

Additional observations from a re-analysis of the deposited data

Results flagged for a closer look

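NFKB2, NFKBIE and TNIP1 had differences of opposite sign in the lines, each above the scatter of dim probesets. That scatter is between single induced and control arrays and does not measure the spread between replicate cultures. With miR-100 induced, NFKB2 was higher by 0.77 in SUM159, with a difference of -0.52 in MDA-MB-231. The differences of NFKBIE were 0.79 (SUM159) and -0.33 (MDA-MB-231), and those of TNIP1 0.92 and -0.29. The MDA-MB-231 values of NFKBIE and TNIP1 lie inside the range of the central 95% of kept genes there (-0.44 to 0.53). The difference between the lines' responses was not tested, since each rests on 1 array per state. All 3 kept these signs after quantile normalization and after centring.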

How the results depend on the processing

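The counts of genes past 1.5-fold in either line and the absence of calls for induction kept within 1.5 times of the reported values under quantile normalization, centring, other signal filters and the mean over probesets. The median of the list ranged from 0.10 to 0.19 in SUM159, the highest with the filter at the 75th percentile, and from -0.03 to 0.02 in MDA-MB-231, where it changed sign. At a 2-fold limit, 2 genes were higher in SUM159, in place of 5. The line calls ranged from 4 to 10 higher and from 5 to 6 lower when each array was left out in turn, with no block, and 5 were lower with the filter at the 75th percentile, where 25 of the 31 genes were left. For the fits with an array left out, the share of all genes called was not counted. None of the 19 called line differences changed sign. IRAK2, not called with all arrays (0.15), was called lower in SUM159 without the induced SUM159 array (-0.735, adjusted p = 0.0269) and higher without the control SUM159 array (1.025, 0.0154). The fit with an intensity trend left TRAF3 (adjusted p = 0.055) and ICAM1 (0.051) uncalled, and the one with no signal filter RELB (0.0843) and BIRC2 (0.0532). With no treatment block ICAM1 (0.112) was not called; TNIP1 was called after quantile normalization (0.0386), at the 75th percentile (0.0473) and with no treatment block (0.0355). The cause was not tested. Among all genes, quantile normalization gave 471 higher and 515 lower in SUM159, and centring 689 and 358, against 570 and 432, so the split of the background depends on scaling; after quantile normalization NFKB1, TNIP2, TRAF3, TAB2 and MAP3K7 turned below 0 in SUM159. Within a line no fit could be made, and signals near the cutoff (IRAK3 and PTGS2 in SUM159) limit what a fall could show.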

Other observations

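Some receptors upstream of the pathway and some of its targets, chosen after their values were seen, differed widely between the lines. Over the whole lists, 13 of 25 receptors were called, 7 higher and 6 lower in SUM159, and 19 of the 31 pathway genes, 11 higher and 8 lower. These counts include genes that passed the filter through 1 line, so their direction follows from the filter and adds no support. They are TLR2 (3.81 and 3.95 in induced and control MDA-MB-231 cells), IL1RL1 (4.08 and 3.95 there), TLR6 (3.94 and 3.80 in induced and control SUM159 cells) and PTGS2. Of all 14418 kept genes, 20.8% were called higher and 23.8% lower, so a call by itself is common. IL18R1 read 9.43 and 10.25 in induced and control SUM159 cells, against 4.20 and 4.36 in MDA-MB-231 cells, 47.2-fold higher in SUM159 (5.56 ± 0.21 SE, limma adjusted p = 0.00192). IL1R1 was 7.84-fold higher (adjusted p = 0.00581) and TNFRSF1A, the main TNF receptor gene, 3.75-fold higher in SUM159 (adjusted p = 0.00409). IL1RAP, TLR4 and TNFRSF12A were not called (adjusted p = 0.909, 0.54 and 0.883). Among targets, IL32 was 39.7-fold higher in SUM159 (adjusted p = 0.00239), while F3 (100.1-fold, adjusted p = 0.00166), PLAU (68.6-fold, adjusted p = 0.00125) and IL6 (5.45-fold, adjusted p = 0.00479) were lower. These targets thus differed in both directions between the lines.

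Some probesets list a gene of the pathway together with another and were left out of the counts, since they cannot be read as either gene. A probeset annotated to SOD2 and SOD2-OT1 read 13.73 in induced and 12.80 in control SUM159 cells, and 9.40 in induced and 9.03 in control MDA-MB-231 cells. A second one with the same symbols lay at 3.95 to 4.15, near the signal cutoff. The probesets shared by IRAK1 with MIR718 and by TAB1 with LOC100506472 differed between states by -0.24 to 0.08.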
